A study of Mus musculus with 24 samples.

Results

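The Reg family of mouse holds small secreted proteins with a C-type lectin fold, and 5 of its genes, Reg3a, Reg3b, Reg3g, Reg1 and Reg4, were followed here through every sample of the series. They were taken by gene symbol from a table of 24421 genes, and all 5 had 1 row each. The samples were epithelial cells sorted as CD45-negative and positive for a tomato reporter driven by Villin, a protein of the brush border, from the colon and the ileum of 12 C57BL/6 mice aged 8 to 14 weeks. KO late were KO chimeras 8 weeks after chimerism (3 mice), KO early were KO chimeras after 2 weeks (4 mice), WT irradiated were wild-type mice labelled as 8 weeks after chimerism (2 mice), and WT non-irradiated were wild-type mice without treatment (3 mice). The sample labels say KO without naming a gene, and the title of the series names macrophages that lack IL-10Rα and an epithelial response driven by IL-22. A chimera that received blood-forming cells has donor macrophages and keeps its own epithelium. WT irradiated share the time of KO late and are its closest control. Time was not matched between KO early and either WT group. WT non-irradiated mice were not chimeras, so in comparisons of KO with them knockout and chimerism cannot be told apart.

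Reg3g binds peptidoglycan and kills Gram-positive bacteria, which keeps the surface of the small intestine largely free of them, and Reg3b acts mainly on Gram-negative bacteria. Both are made by enterocytes and Paneth cells of the small intestine, and IL-22, which signals in epithelium through Il22ra1 and the transcription factor Stat3, and microbial signals through MyD88 are known to raise them. Reg3a belongs to the same subfamily, Reg1 was described as a protein of the exocrine pancreas and of regenerating tissue, and Reg4 marks deep crypt secretory cells and enteroendocrine cells of the mouse colon. Reg3b, Reg3a, Reg1 and Reg3g lie in this order in a cluster on chromosome 6, together with Reg3d and Reg2, and Reg4 lies apart on chromosome 3.

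The 250 bases before the start of Reg3b and Reg3g, the pair of genes that carried the largest differences, are shown with those of Reg3a, their neighbour in the cluster, which passed no limma test between KO and WT within a tissue. They are RefSeq sequences of the build GRCm38.p6, written 5′ to 3′ on the strand of the gene, for Reg3b at chr6:78370635-78370884 on the plus strand, for Reg3g at chr6:78468875-78469124 on the minus strand and for Reg3a at chr6:78380459-78380708 on the plus strand. Capitals mark the palindrome TTCNNNGAA, the core recognised by STAT factors, and TATAAA on either strand.
Reg3b: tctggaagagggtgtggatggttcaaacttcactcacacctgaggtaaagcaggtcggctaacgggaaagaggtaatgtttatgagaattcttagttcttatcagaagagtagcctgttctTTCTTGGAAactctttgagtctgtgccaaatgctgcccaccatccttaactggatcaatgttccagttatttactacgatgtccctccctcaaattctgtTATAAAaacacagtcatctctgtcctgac
Reg3g: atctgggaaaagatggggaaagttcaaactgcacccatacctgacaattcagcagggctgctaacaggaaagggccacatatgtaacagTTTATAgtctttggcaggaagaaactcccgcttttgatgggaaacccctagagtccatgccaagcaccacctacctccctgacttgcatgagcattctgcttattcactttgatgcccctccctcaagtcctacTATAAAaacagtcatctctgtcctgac
Reg3a: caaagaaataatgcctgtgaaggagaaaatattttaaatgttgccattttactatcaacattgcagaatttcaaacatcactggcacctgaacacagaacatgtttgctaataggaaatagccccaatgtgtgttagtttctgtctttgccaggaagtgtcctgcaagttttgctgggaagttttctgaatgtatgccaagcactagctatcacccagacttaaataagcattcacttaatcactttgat
Reg3b held TTCTTGGAA starting 129 bases before the start and TATAAA 29 bases before it. Reg3g held TATAAA 27 bases before the start and a second match, on the opposite strand, 161 bases before it, with no TTCNNNGAA. In Reg3a these letters were not found in this window, nor in that of Reg4, while Reg1 had TATAAA at 30 bases. Of the 27025 promoters of the same length in that build, 7.18% held TTCNNNGAA and 12.97% held TATAAA anywhere in the window. These shares do not take the place of a match into account. The deposited values were made on another build, mm9, and these coordinates belong to the RefSeq build only.

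Libraries held 8.32 to 18.7 M reads assigned to genes, with a median of 13.2 M. The unit throughout is the normalised read, the count of a gene divided by a size factor of its library. Rn45s, the precursor of ribosomal RNA, took 0.0642 to 29.4% of the reads of a library. Epcam, which marks epithelium, lay between 12262 and 35668 normalised reads, and the leukocyte marker Ptprc between 156.7 and 472.2. Fabp6, which marks ileal enterocytes, had 11906 or more normalised reads in every ileum library and at most 485.0 in colon, and Car1, which marks colonocytes, had 3652 or more in colon and at most 330.3 in ileum. Il10ra had at most 31.2 normalised reads in any library, and since it acts in other cells it does not check the KO label. Reads could be told apart within the family, because none of the 50-base stretches of the transcripts of these 5 genes came within 2 mismatches of another Reg transcript. Of Reg1, 32 of 855 such stretches also occur in genes outside the family.

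The comparisons of KO with WT colon asked how the colonic epithelium responds to the knockout at either time. Reg3b had 25180, 71601 and 149373 normalised reads in the KO late colons and 18402, 73672, 127632 and 54106 in the KO early colons, against 701.2 and 950.1 in WT irradiated and 758.1, 929.6 and 3606 in WT non-irradiated. Every KO colon lay above every WT colon, and the lowest KO value was that of mouse 100 of KO early. In KO late Reg3b rose by 6.30 ± 0.83 on the log2 scale (± SE, adjusted p = 0.00280) and in KO early by 6.08 ± 0.79 (adjusted p = 0.00490), both against WT irradiated and by limma over all 19145 genes tested in colon. On the linear scale these are 79.0-fold and 67.7-fold. Set against WT non-irradiated colon the changes were 5.56 ± 0.74 (adjusted p = 0.00188) and 5.34 ± 0.70 (adjusted p = 0.00331) by limma. A pseudocount of 1 was added before each logarithm, which makes the changes of low genes look smaller.

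Reg3g followed the same pattern at a lower level. It had 12241, 35146 and 60988 normalised reads in KO late colon and 4191, 22435, 48204 and 12454 in KO early colon, against 251.9 and 342.0 in WT irradiated and 328.7, 276.7 and 796.4 in WT non-irradiated colon. Again no KO colon came down to the WT range. It rose by 6.66 ± 0.83 (SE, adjusted p = 0.00205) in KO late and by 5.71 ± 0.79 (adjusted p = 0.00704) in KO early against WT irradiated by limma, and by 6.15 ± 0.75 (adjusted p = 9.80e-04) and 5.20 ± 0.70 (adjusted p = 0.00421) against WT non-irradiated.

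**Figure D1:**
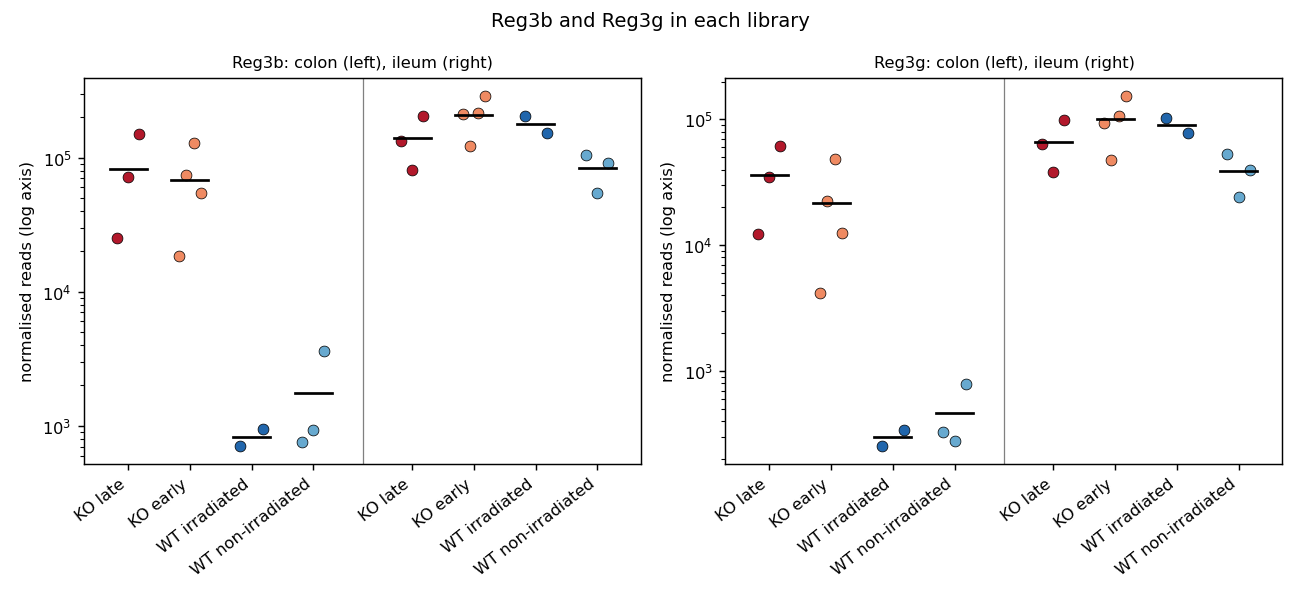
Normalised reads of Reg3b (left panel) and Reg3g (right panel) in each library on a log axis, with colon left and ileum right of the grey line in each panel; points are mice and bars are group means. All 7 KO colons lie above all 5 WT colons for both genes, with Reg3b at 18402 or more against 3606 or less, while in ileum KO late overlaps with every group and WT non-irradiated lies at 105409 or less for Reg3b.

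By limma, Reg3b and Reg3g were the 2 of the 5 genes that rose in both KO groups against WT irradiated colon, and none was called lower. Across all genes 1.03% were called in KO late (197 genes, 123 of them, 0.642% of all, higher) and 0.204% in KO early (39 genes, 32 of them, 0.167% of all, higher). The median log2 fold change of the 5 genes was 1.92 and 1.88, against -0.01 and 0.04 over all genes tested. These shares moved with single mice: limma called 11 (without WT irradiated mouse 59) to 103 genes in KO late with 1 mouse left out, each of the 5 mice lowering the count by over 1.5 times. In KO early it called 3 and 4 without WT irradiated mice 59 and 61, 18 and 25 without KO early mice 118 and 120, and 73 without mouse 100. Leaving out 1 of the 2 control mice ended some of these calls. Without WT irradiated mouse 59 the limma adjusted p of Reg3b was 0.0541 in KO late and 0.117 in KO early, and that of Reg3g was 0.0530 and 0.150. Without mouse 61 they stayed under 0.05 in KO late, and in KO early they were 0.0681 for Reg3b and 0.0921 for Reg3g.

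The share of all reads that went to the 5 genes, counted without Rn45s, was 0.367 to 1.64% in KO late colon and 0.198 to 1.52% in KO early colon, against 0.0159 to 0.0253% in WT irradiated and 0.0162 to 0.0679% in WT non-irradiated colon. In KO colons at least 97.5% of these reads were Reg3b and Reg3g together. In WT colons the pair made 26.7 to 66.9% of them, and nearly all the rest was Reg4. Per kb of transcript, which allows genes to be compared, KO late colon had 104791 ± 80144 normalised reads of Reg3b and 46855 ± 31632 of Reg3g (SD, n = 3). On the same per-kb scale it had 339.6 ± 34.9 of Reg4, 52.2 ± 22.7 of Reg3a and 30.4 ± 13.3 of Reg1. In WT irradiated colon Reg4, at 1072 ± 50.1 per kb, stood beside Reg3b, at 1055 ± 225 (n = 2), within their spread.

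Reg3a, of the same subfamily, did not pass in either KO group in colon. It had 26.0, 40.0 and 63.1 normalised reads in KO late colon and 10.1, 38.2, 62.1 and 20.2 in KO early colon, against 14.0 and 18.6 in WT irradiated and 14.0, 12.4 and 35.4 in WT non-irradiated colon. KO late lay above WT irradiated, but mouse 100 of KO early lay below every WT mouse and mouse 75 of WT non-irradiated lay among the KO mice. The log2 differences were 1.27 ± 0.67 (adjusted p = 0.327) in KO late and 0.69 ± 0.63 (adjusted p = 0.959) in KO early against WT irradiated by limma, with 95% intervals of -0.16 to 2.70 and -0.67 to 2.05. Those of Reg3b began at 4.52 and 4.39, above the upper ends for Reg3a. The ratio of Reg3b to Reg3a normalised reads was 969 to 2367 in KO late and 1822 to 2679 in KO early colon, against 50.1 to 51.1 in WT irradiated and 54.2 to 102 in WT non-irradiated colon. The colon values of Reg3a rest on 8 to 80 reads per library, so their relative counting error was larger than that of Reg3b and Reg3g.

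Reg1 was at the limit of detection in WT colon. It had 21.1, 20.0 and 41.4 normalised reads in KO late and 12.6, 40.5, 45.1 and 17.4 in KO early, against 9.9 and 3.7 in WT irradiated and 2.5, 0.0 and 4.8 in WT non-irradiated colon. All KO colons lay above all WT colons, where 0 to 12 reads per library were counted. Against WT non-irradiated it rose by 3.31 ± 0.68 in KO late (adjusted p = 0.0220) and by 3.27 ± 0.64 in KO early (adjusted p = 0.0364) by limma, fits in which 2.49% and 0.559% of all genes were called. Against WT irradiated it did not pass, at 1.92 ± 0.76 (adjusted p = 0.273) and 1.88 ± 0.72 (adjusted p = 0.609) by limma. The call in KO late was lost without any 1 of KO late mice 49, 50 and 57 or WT non-irradiated mice 72 and 73, and that in KO early without any 1 of KO early mice 117, 118 and 120 or WT non-irradiated mice 72 and 73, with a pseudocount of 10 (adjusted p = 0.0546), in edgeR (adjusted p = 0.0741) and when only these groups were fitted (adjusted p = 0.0757).

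Reg4 went the other way. It had 322.1, 330.6 and 387.6 normalised reads in KO late colon and 548.1, 426.7, 153.0 and 548.5 in KO early colon, against 1058 and 1131 in WT irradiated and 2971, 1161 and 2138 in WT non-irradiated colon. All 7 KO colons lay below all 5 WT colons, and mouse 118 of KO early was lowest. Against WT non-irradiated colon it fell by 2.49 ± 0.43 (SE, adjusted p = 0.00918) in KO late and by 2.38 ± 0.41 (adjusted p = 0.0169) in KO early on the log2 scale, by limma. Against WT irradiated the log2 differences of -1.66 ± 0.49 (adjusted p = 0.152) and -1.54 ± 0.46 (adjusted p = 0.387) did not pass. The KO late difference passed in DESeq2 (-1.63, adjusted p = 0.0270) and in limma with only these groups fitted (adjusted p = 0.0149). With both WT groups taken as control both passed (adjusted p = 0.00966 and 0.0195 by limma). Without WT non-irradiated mouse 72, the highest library, the calls against WT non-irradiated were lost (adjusted p = 0.0620 and 0.128 by limma).

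Markers of cells that make Reg4 gave these values beside it. Chga, the granule protein of enteroendocrine cells, had 45.4 to 97.9 normalised reads in KO late and 107.2 to 272.9 in KO early colon, against 427.2 to 573.9 in WT irradiated and 619.3 to 948.3 in WT non-irradiated colon. Over the list of 15 enteroendocrine genes the summed level was 1190 to 1484 in KO late and 1479 to 3082 in KO early, against 1653 to 3523 in WT irradiated and 3276 to 3794 in WT non-irradiated colon. Of its 14 tested genes 3 were lower and 1 higher in KO late against WT irradiated, and none were lower and 1 higher in KO early. Chga was among the lower ones in KO late. The higher one was Tac1 in both, by 3.64 ± 0.53 (adjusted p = 0.00520) and 4.38 ± 0.50 (adjusted p = 0.00202) by limma. Against WT non-irradiated colon, 5 of the 14 were lower and 1 higher in KO late, and 1 lower and 1 higher in KO early. Of all genes 1.46% and 0.256% were lower in these fits. Chga was lower in both, at -3.65 ± 0.37 (adjusted p = 3.95e-04) and -1.92 ± 0.35 (adjusted p = 0.024) by limma. The summed level of the 13 goblet cell genes was 69868 to 172422 in KO late and 84847 to 217527 in KO early, against 156122 to 463613 in WT irradiated and 263828 to 464925 in WT non-irradiated colon, and 1 of them was lower in KO late and none in KO early against WT irradiated. Against WT non-irradiated 2 of them were lower in KO late and none in KO early. The part of these cells in the result was not tested, and in bulk samples fewer cells of a type and less RNA per cell cannot be told apart.

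**Figure D2:**
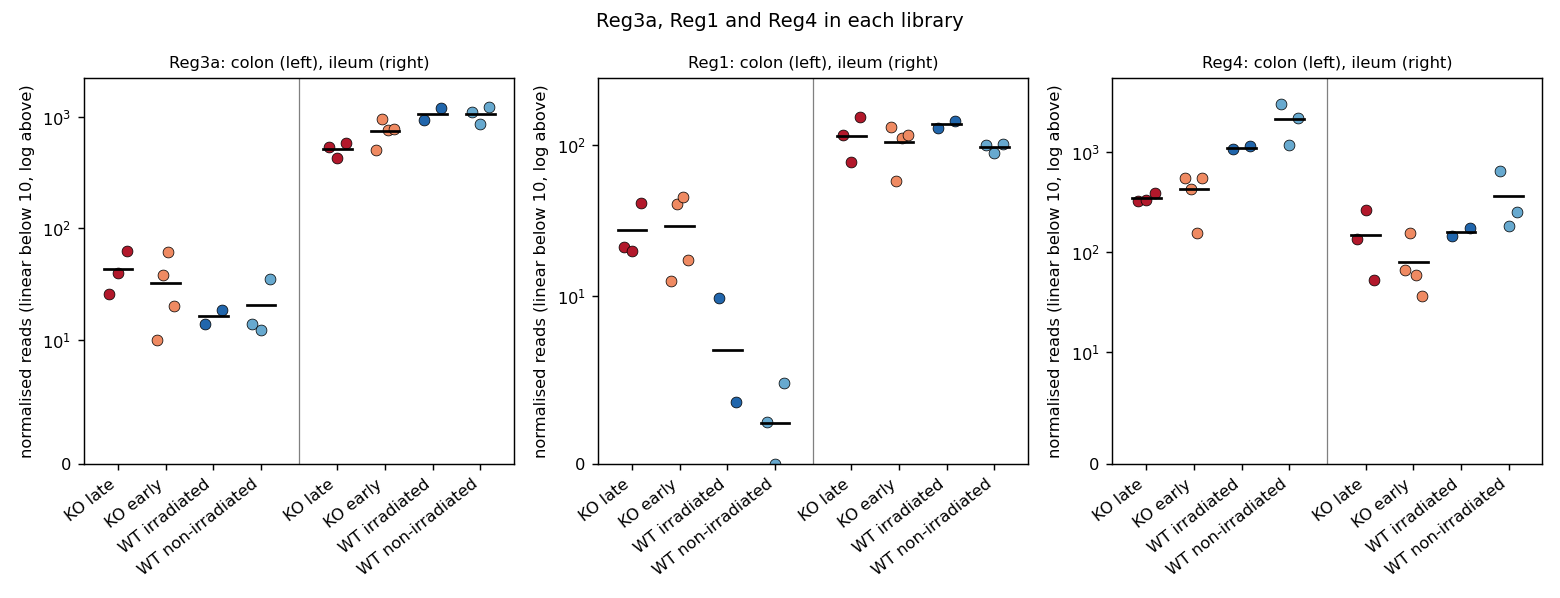
Normalised reads of Reg3a, Reg1 and Reg4 in each library, with colon left and ileum right of the grey line; the axis is linear below 10 and logarithmic above, points are mice and bars are group means. In colon Reg4 lies at 548.5 or less in KO mice and at 1058 or more in WT mice, Reg1 lies at 12.6 or more against 9.9 or less, and the groups share a range for Reg3a.

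Against WT non-irradiated colon, which differs from KO in chimerism as well, 3 of the 5 genes rose (Reg3b, Reg3g and Reg1). In the same fits 1 fell (Reg4) and Reg3a did not pass, in KO late and in KO early alike. Of all genes 1.02% were higher and 1.46% lower in that fit of KO late, and 0.303% higher and 0.256% lower in that of KO early. With single mice left out limma called 128 (without WT non-irradiated mouse 72) to 7633 genes (without mouse 75) in the first of these fits, against 476, and 29 to 2542, without the same mice, in the second, against 107. In the first fit the count also lay more than 1.5 times lower without KO late mouse 49 or 50 or WT non-irradiated mouse 73 (148 to 219 genes). In the second it lay more than 1.5 times lower without KO early mouse 118 (50 genes) or WT non-irradiated mouse 73 (71 genes), and higher without KO early mouse 100 (169 genes). KO late and KO early colon did not differ by the test in any of the 5 genes, where 0.00522% of all genes were called. The difference was 0.22 ± 0.70 for Reg3b (95% interval -1.27 to 1.72, adjusted p = 0.880) and 0.95 ± 0.70 for Reg3g (-0.55 to 2.45, adjusted p = 0.516) by limma. Differences between 2 and 8 weeks within these intervals remain possible. Within KO colon the mice spread widely: the highest library held 5.93 times the Reg3b of the lowest in KO late and 6.94 times in KO early, and for Reg3g 4.98 and 11.5 times. Mouse 57 was the highest of KO late and mouse 118 of KO early for Reg3b and Reg3g as well as for Reg3a and Reg1, and mouse 100 was the lowest of KO early for all 4. The 2 WT groups did not differ in colon by the test in any of the 5 genes, with 0 genes called by limma and 66 of 19145 at an unadjusted p under 0.05, and by edgeR and DESeq2 0 genes were called as well. For Reg3b that difference was -0.74 ± 0.83, for Reg4 -0.83 ± 0.49 and for Reg1 1.39 ± 0.76 (WT irradiated over WT non-irradiated).

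**Figure D3:**
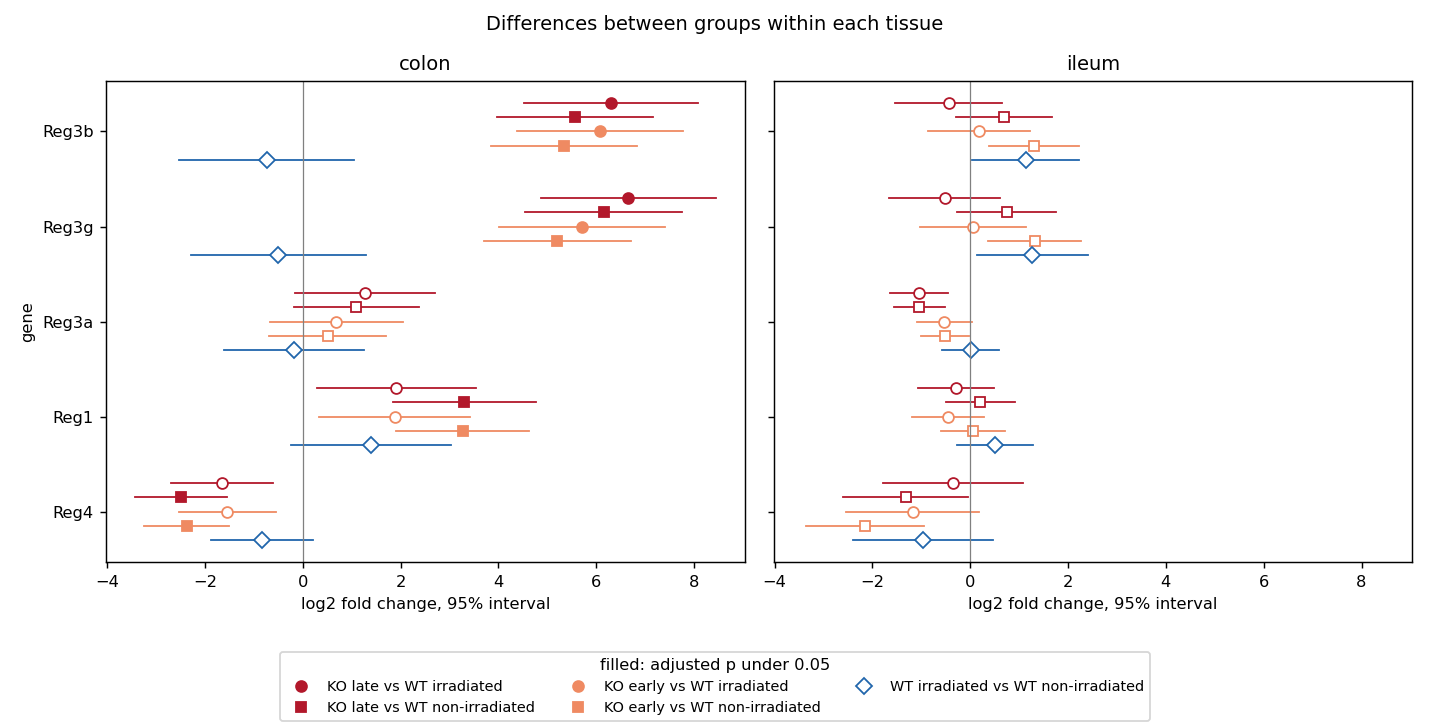
Log2 fold change (x axis) with its 95% interval for each gene (y axis) in colon (left) and ileum (right), by limma; red and orange mark KO late and KO early, circles the comparison with WT irradiated and squares that with WT non-irradiated, blue diamonds compare the WT groups, and filled symbols passed at an adjusted p under 0.05. In colon the intervals of Reg3b and Reg3g begin at 3.71 or higher in all 4 comparisons of KO with WT, while no symbol is filled in ileum.

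Ileum gave another picture, and Reg3b and Reg3g were abundant in WT ileum as well. Reg3b had 133115, 80557 and 204815 normalised reads in KO late ileum and 210203, 121230, 214118 and 288262 in KO early ileum, against 203994 and 152385 in WT irradiated and 105409, 54467 and 90888 in WT non-irradiated ileum. KO late, KO early and WT irradiated shared 1 range, and WT non-irradiated lay below KO early and WT irradiated without overlap. The log2 differences from WT irradiated were -0.44 ± 0.51 in KO late (95% interval -1.54 to 0.66) and 0.18 ± 0.48 in KO early (-0.87 to 1.22) by limma over 19122 genes. Reg3g had 63412, 37951 and 98508 normalised reads in KO late and 93648, 47254, 107316 and 153672 in KO early, against 102594 and 77437 in WT irradiated and 52767, 24067 and 39832 in WT non-irradiated ileum, with differences from WT irradiated of -0.53 ± 0.53 and 0.05 ± 0.50. None of the 5 genes passed in any of the ileal comparisons by limma, where 0% of all genes were called.

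Some ileal differences had a low unadjusted p and did not pass by limma. Against WT non-irradiated ileum, KO early differed by 1.31 ± 0.43 for Reg3b (adjusted p = 0.219), 1.32 ± 0.44 for Reg3g (adjusted p = 0.223) and -2.15 ± 0.56 for Reg4 (adjusted p = 0.191) by limma. For this comparison limma gave 3492 of the 19122 genes (18.3%) an unadjusted p under 0.05. DESeq2 on the recovered reads called all 3 (adjusted p = 0.0209, 0.0373 and 0.0212), where it called 360 of all genes. WT irradiated ileum stood above WT non-irradiated ileum by 1.13 ± 0.51 for Reg3b and 1.27 ± 0.53 for Reg3g (unadjusted p = 0.0444 and 0.0312, adjusted p = 1.0 by limma), in 2 of 2 irradiated mice. Between these WT groups 187 of the 19122 genes had an unadjusted p under 0.05. Reg3a was lower in KO late ileum, with 536.7, 429.6 and 586.9 normalised reads, against 941.2 and 1200 in WT irradiated and 1114, 864.9 and 1228 in WT non-irradiated ileum. These groups did not overlap, and KO early, at 509.9, 962.7, 761.7 and 782.7, overlapped with KO late and with both WT groups. The difference of KO late from WT irradiated was -1.05 ± 0.27 (unadjusted p = 0.00195, adjusted p = 1.0 by limma), and that from WT non-irradiated was -1.04 ± 0.25 (unadjusted p = 8.57e-04, adjusted p = 0.745). At an unadjusted p under 0.05 limma gave 157 of the 19122 genes in the first of these fits and 653 in the second.

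Reg1 and Reg4 also passed in no ileal comparison by limma. Reg1 had 77.0 to 152.9 normalised reads in KO late and 57.8 to 130.8 in KO early ileum, against 129.0 to 144.4 in WT irradiated and 88.0 to 101.5 in WT non-irradiated ileum. Reg4 had 134.8, 260.0 and 52.2 normalised reads in KO late and 66.5, 153.1, 59.4 and 36.5 in KO early ileum, against 143.3 and 171.7 in WT irradiated and 645.0, 183.4 and 247.3 in WT non-irradiated ileum. KO early lay below WT non-irradiated throughout, and KO late overlapped with both WT groups. The summed level of 12 Paneth cell genes, cells that also make Reg3b and Reg3g, was 3731 to 8140 in KO early ileum, against 6788 to 36711 in KO late, 17762 to 19391 in WT irradiated and 11756 to 41507 in WT non-irradiated ileum. Their part in the ileal values was not tested.

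Colon was set against ileum within each group to ask how the regional pattern of the family held up. In WT mice Reg3b, Reg3g, Reg3a and Reg1 were lower in colon than in ileum and Reg4 was higher, so all 5 were called, where 10.1% of genes were called in WT irradiated and 14.7% in WT non-irradiated. Reg3b in colon was 0.344 to 0.624% of its level in the ileum of the same mouse in WT irradiated and 0.719 to 3.97% in WT non-irradiated (log2 difference -7.75 ± 0.80 and -5.88 ± 0.65, adjusted p = 3.17e-07 and 5.01e-07 by limma). In KO mice that share was 18.9 to 88.9% in KO late and 8.75 to 60.8% in KO early. The log2 difference was -1.01 ± 0.65 in KO late, which did not pass (adjusted p = 0.217), and -1.85 ± 0.57 in KO early (adjusted p = 0.0288) by limma, a call that was lost without KO early mouse 100 or 120 and in edgeR (adjusted p = 0.0840). For Reg3g the shares were 19.3 to 92.6% in KO late and 4.48 to 47.5% in KO early, against 0.246 to 0.442% in WT irradiated and 0.623 to 2.00% in WT non-irradiated.

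Reg3a kept more of its regional difference. Its colon level was 4.84 to 10.8% of that in ileum in KO late and 1.98 to 8.15% in KO early, against 1.49 to 1.55% in WT irradiated and 1.26 to 2.88% in WT non-irradiated mice, and it was lower in colon in every group (log2 -3.64 ± 0.47 in KO late, adjusted p = 4.23e-06 by limma). Reg1 in colon was lower than in ileum in all 12 mice, by -2.05 ± 0.55 in KO late (adjusted p = 0.00879), -1.93 ± 0.48 in KO early (adjusted p = 0.00572) and -4.26 ± 0.67 in WT irradiated (adjusted p = 9.16e-05) by limma. That of KO late was lost without KO late mouse 49 and that of KO early without mouse 100 or 120. Reg4 was higher in colon in all 12 mice, at 127 to 742% of its ileum level in KO late and 258 to 1503% in KO early, against 659 to 739% in WT irradiated and 461 to 864% in WT non-irradiated. In WT irradiated it was called at 2.79 ± 0.69 (adjusted p = 0.00912 by limma), and not without mouse 59 or 61. Its log2 difference was 1.49 ± 0.57 in KO late (adjusted p = 0.0533 by limma), and with the mouse as a block, since both tissues came from the same animals, it passed (adjusted p = 0.00870). In KO late 2 of the 5 genes were called, both lower in colon, where 28% of all genes were called, and in KO early all 5 were called, where 14.2% of all genes were.

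**Figure D4:**
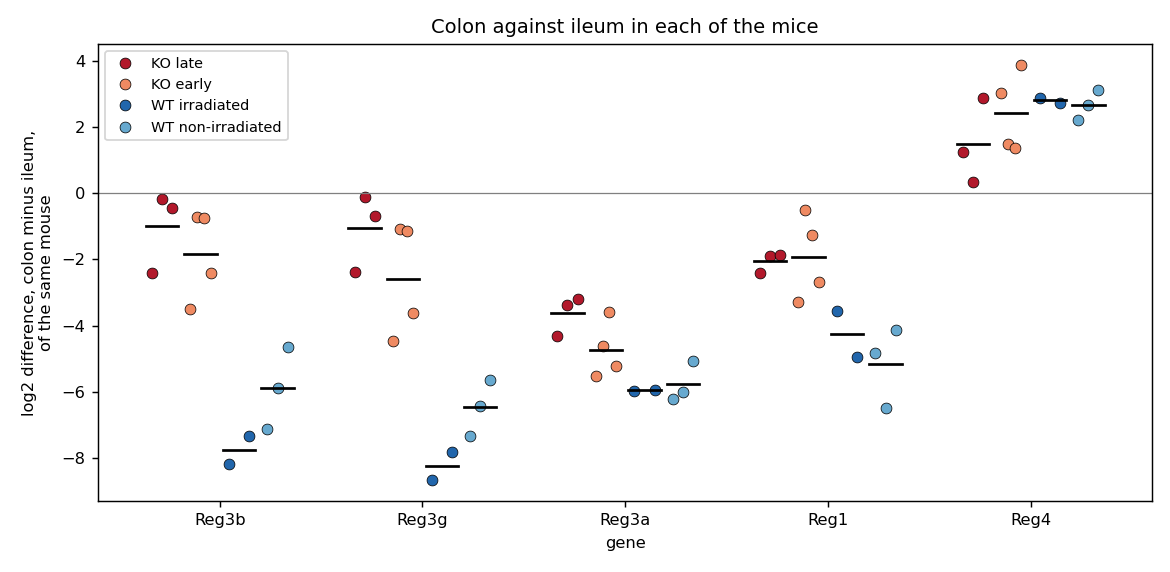
Log2 difference of colon minus ileum within each mouse (y axis) for each gene (x axis); points are mice in their groups and bars are group means. For Reg3b the KO mice lie between -3.51 and -0.17 and the WT mice between -8.18 and -4.66, and only Reg4 lies above 0.

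The difference between tissues in the KO effect was itself tested. The change of KO late from WT irradiated was larger in colon than in ileum by 6.74 ± 1.03 for Reg3b (adjusted p = 0.00635) and by 7.18 ± 1.07 for Reg3g (adjusted p = 0.00592) in log2 units by limma over 19588 genes, of which 0.189% were called (0.143% higher). For KO early it was larger by 5.91 ± 0.98 (adjusted p = 0.0266) and 5.66 ± 1.01 (adjusted p = 0.0360), with 0.0408% of genes called (0.0306% higher). In KO late, Reg3a had 2.32 ± 0.74, which did not pass (adjusted p = 0.445) and did with the mouse as a block (adjusted p = 0.0347), while Reg1 (2.21 ± 0.87) and Reg4 (-1.31 ± 0.90) passed in neither. The KO late calls were lost for both genes without WT irradiated mouse 59 or 61, and for Reg3b without KO late mouse 50. The KO early calls of both were lost without KO early mouse 117, 118 or 120 or WT irradiated mouse 59 or 61, and with scaling to the library total without Rn45s (adjusted p = 0.0587 and 0.0658).

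Reg3b and Reg3g kept nearly the same proportion to each other in ileum, where the ratio of their normalised reads was 2.08 to 2.12 in KO late, 1.88 to 2.57 in KO early, 1.97 to 1.99 in WT irradiated and 2.00 to 2.28 in WT non-irradiated. In colon it was 2.04 to 2.45 in KO late and 2.65 to 4.39 in KO early, against 2.78 in both WT irradiated and 2.31 to 4.53 in WT non-irradiated mice. KO late and KO early colon did not overlap in this ratio, a difference that was not tested. Over the 12 colon libraries the log2 values of the pair had a Pearson r of 0.992, and over the 12 ileum libraries of 0.990, as a description.

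By the same measure of likeness over the 12 colon libraries, the genes nearest to Reg3b among 10139 genes that averaged 100 normalised reads or more were Plet1 (r = 0.968), Plet1os, Tac1, Wfdc18 and Clca4b (r = 0.965). Those nearest to Reg3g were Wfdc18 (r = 0.980), Plet1, Plet1os, Clca4b and Clca3b. Plet1 codes for a surface protein of epithelium, Tac1 for the precursor of substance P, and the Clca genes for secreted regulators of chloride channels. Plet1os is antisense to Plet1, and reads of this pair cannot be told apart where strand was not used in counting. The KO and WT colons form separate levels of Reg3b and Reg3g, so these coefficients mostly measure that shared step. Nearest to Reg4 in colon were Dgke (r = 0.930), Fabp2, Prss23, Mfap3l and Fam129a, to Reg1 Fads1 (r = 0.904), Lrp8, Lrg1, Pla2g2a and Wfdc18, and to Reg3a Sccpdh (r = 0.877), Fbln1, Cwh43, Slc7a11 and Arhgap29. In ileum B4galt1 (r = 0.955 and 0.936) and Fam3b (r = 0.943 and 0.921) were nearest to Reg3b and to Reg3g. All of these are descriptions over the 12 libraries of a tissue, which come from different mice and differ in depth.

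Of the 2 other Reg genes of the table, Reg3d had 26.0, 89.9 and 87.8 normalised reads in KO late colon and 13.5, 40.5, 68.4 and 34.2 in KO early colon, against 2.5 and 8.2 in WT irradiated and 2.5, 3.1 and 12.1 in WT non-irradiated colon. All KO colons lay above all WT colons. It rose against WT non-irradiated in KO late by 3.39 ± 0.69 (adjusted p = 0.0205) by limma, and did not pass against WT irradiated (3.41 ± 0.77, adjusted p = 0.0544). Reg2 had at most 12.1 normalised reads in any library and did not pass the filter. Extl3, a surface protein described as a receptor for Reg proteins, did not pass (KO late against WT irradiated colon, log2 -0.53 ± 0.29, adjusted p = 0.334 by limma).

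Genes of the signalling known to raise Reg3b and Reg3g, its feedback genes included, mostly did not pass in colon. Il22ra1 had a log2 difference of -0.43 ± 0.40 in KO late colon (adjusted p = 0.514) and -0.46 ± 0.38 in KO early colon (adjusted p = 0.959) against WT irradiated by limma, and Stat3 had 0.37 ± 0.37 and 0.44 ± 0.35 (adjusted p = 0.542 and 0.959). Of 12 genes from the IL-22 receptor to STAT3 and its feedback, 1 rose in KO late, the kinase gene Pim1 (2.33 ± 0.50, adjusted p = 0.0425 by limma), and none in KO early. The median of these 12 was 0.27 and 0.34. Against WT non-irradiated colon the feedback inhibitor Socs3 rose in KO early (3.90 ± 0.67, adjusted p = 0.0169) and Cish, another one, fell by 1.85 ± 0.41 in KO late (adjusted p = 0.0297) by limma. Of 12 genes of Toll-like receptor and MyD88 signalling none was called against WT irradiated colon, and against WT non-irradiated Tlr5, the flagellin receptor, fell by 1.30 ± 0.30 in KO late (adjusted p = 0.0378 by limma). Il22 itself, which is made by lymphoid cells, had at most 13.3 normalised reads in any library of these sorted cells.

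Some other genes known to respond to IL-22 or microbes rose in KO colon beside Reg3b and Reg3g. Of 20 such genes other than the Reg family, 8 rose in KO late and 6 in KO early against WT irradiated colon and none fell, with medians of 1.68 and 2.07. Of all genes tested 0.642% and 0.167% were called higher in these fits. The list was chosen with earlier results of these data known. Steap4, a metalloreductase, rose by 4.45 ± 0.45 and 3.33 ± 0.42, and Nos2, the inducible nitric oxide synthase, by 4.41 ± 0.49 and 4.16 ± 0.46 (adjusted p between 6.68e-04 and 0.00483 by limma). In ileum none of the 17 that passed the filter was called against WT irradiated, where 0% of all genes were called in either KO group. Other secreted antimicrobial proteins were mixed. Of 18 tested, 2 rose and 2 fell in KO late colon, where the phospholipase Pla2g2a rose by 2.38 ± 0.36 (adjusted p = 0.00741) and the ribonuclease Ang4 had a log2 fold change of -6.08 ± 0.91 (adjusted p = 0.00668) by limma. In KO early colon 1 rose, which was Pla2g2a (2.49 ± 0.34, adjusted p = 0.00679), and none fell.

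Markers of cells other than epithelium, and of Paneth cells, which belong to it, gave these values beside the rise of Reg3b and Reg3g. The summed level of 12 leukocyte genes was 359.2 to 806.1 normalised reads in KO late colon and 397.6 to 468.5 in KO early colon, against 310.4 to 516.7 in WT irradiated and 304.5 to 567.3 in WT non-irradiated colon, and none of the 11 tested was called. That of 14 myeloid genes was 1530 to 2203 and 1276 to 3793, against 1066 to 1568 and 1174 to 2528, with none of 13 called in KO against WT irradiated. That of 16 genes of pancreatic acinar cells, another source of Reg transcripts, was 475.7 to 535.6 in KO late and 517.7 to 1085 in KO early, against 846.8 to 1357 in WT irradiated and 722.5 to 1412 in WT non-irradiated colon, and none of the 10 tested was called against WT irradiated. The median log2 difference of these 10 was 0.45 in KO late and -0.01 in KO early, so the median and the sum differ in direction in KO late. The lipase Pnlip had 17.8 to 43.3 normalised reads in KO late and 11.2 to 21.7 in KO early, against 7.4 to 8.2 in WT irradiated and 4.7 to 21.7 in WT non-irradiated colon. Other acinar genes did not share this pattern. Cela2a had 67.5 to 74.0 in KO late and 48.7 to 80.1 in KO early colon. Its WT values were 62.5 to 73.3 in irradiated and 63.5 to 107 in non-irradiated colon. In KO late, Cpa1 overlapped with WT irradiated only and Ctrb1 with WT non-irradiated only, each above the other WT group. Cela1 had a log2 difference of -2.2 ± 0.48 in KO late against WT non-irradiated colon (adjusted p = 0.0290 by limma). The Paneth cell sum in colon was 814.4 to 1224 in KO late and 1151 to 1566 in KO early, against 3496 to 6147 in WT irradiated and 5491 to 9953 in WT non-irradiated colon. This sum and the single genes differ in direction, since of 8 Paneth cell genes tested against WT irradiated 2 were higher and 1 lower in KO late (median 1.13) and 1 higher and none lower in KO early (median 0.41). The lower one was Ang4 and Pla2g2a was among the higher ones. None of these 4 sums was above the WT range in all KO mice. The defensin gene Defa17 and the amylase gene Amy2a5 were at 0 in all WT colons. Their part in the result was not tested.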

How the data were processed

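Per the labels' protocols, 100 ng of total RNA per sample went into a stranded kit with ribosomal depletion, and single-end reads of 50 bases were made; the molecule label says polyA RNA. Per the submitters' processing notes, bcl2fastq, HISAT 0.1.6, HOMER and the build mm9 were used; whether strand was used in counting is not stated there. The authors deposited a signal per gene, the reads of a library over its size factor. In each library they are whole multiples of the value of 1 read, 0.698 to 2.22, within 0.05 normalised reads for 100.0% of low values, which gave back the reads. Median-of-ratios size factors of these equalled the deposited ones.

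Comparisons within a tissue used its 12 libraries as 4 groups, and the others all 24 as 8 groups. limma 3.58.1 (R 4.3.3) with a trend was run on log2(value + 1) for genes that reached 10 normalised reads in 2 or more libraries, as all 5 did, with Benjamini-Hochberg adjustment over all genes and calls under 0.05. The script was tested on simulated data. Alternatives were edgeR 4.0.16 and DESeq2 1.42.0 on the recovered reads, a pseudocount of 10, no filter, TMM scaling, scaling to the library total without Rn45s, single mice left out, only the compared groups, both WT groups as control, and the mouse as a block. Per the labels a number names 1 mouse, which pairs its colon with its ileum; a mouse's deviations in both tissues correlated at -0.36 to 0.56 across genes in groups of 3 or 4. Replicates are different mice by their numbers, and no pair of libraries was alike beyond sampling noise (chi-square per gene of 15.4 or more over 276 pairs). Intervals of 95% are from the fits, and counting error is largest for Reg1 and Reg3a in colon.

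Named were the 5 genes, Reg2 and Reg3d, the 5 genes most alike by Pearson r per gene and tissue (mean of at least 100 normalised reads), and the 2 called genes with the smallest p of a list. Members and lists were chosen with earlier results of these data known. Transcripts and names were matched by symbol to annotation of GRCm38.p6.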

Additional observations from a re-analysis of the deposited data

Results flagged for a closer look

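Reg3b and Reg3g were flagged because the change in KO mice differed between tissues by a test of the difference itself. The log2 change from WT irradiated was larger in colon than in ileum by 6.74 for Reg3b and 7.18 for Reg3g in KO late, and by 5.91 for Reg3b and 5.66 for Reg3g in KO early. Among the 10 sets of 4 KO early mice (5 genes in 2 tissues), no library stood apart from the rest by Dixon's criterion. Groups of 2 or 3 mice were too small for it.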

How the results depend on the processing

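Of 1131 values of the 5 genes under the alternatives, 1040 kept their direction and side of the threshold, 47 lost a call, 12 gained one and 32 turned their sign, none of these with a call in either fit. DESeq2 gave no adjusted p for 3 values, among them Reg1 in KO early against WT non-irradiated colon. The cause was not tested for any of them. With both WT groups as control 4 of the 5 genes were called in each KO group against WT colon in place of 2, while calls over all genes were 788 in KO late, against 197, and 207 in KO early, against 39. DESeq2 called 3 in KO early against WT non-irradiated ileum and 360 of all genes, where limma called 0 of either. In the test between tissues of the change of KO early from WT irradiated, 1 gene was called with no filter and 0 with scaling to the library total without Rn45s, in place of 2. The block of the mouse gave 3 called genes for KO late in colon against ileum and in the test between tissues, in place of 2 each, and changed no other call. Over all genes, the alternatives that kept every mouse called 3944 to 9632 for colon against ileum in KO late, against 5494 in the main fit. In the test between tissues they called 27 to 130 for KO late, against 37, and 1 to 93 for KO early, against 8.

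With single mice left out, called genes were 0 to 2 in KO late and 0 to 2 in KO early against WT irradiated colon, 2 to 4 in each against WT non-irradiated colon, 1 to 3 and 3 to 5 for colon against ileum in KO late and KO early, and 0 to 2 in each test between tissues. The low ends came from the mice named beside the results. Calls over all genes for colon against ileum fell as well, to 2797 to 3474 in KO late, against 5494, and to 2119 to 2329 in KO early, against 2774. In the tests between tissues the calls over all genes also moved with single mice.

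Turned signs between KO late and KO early colon were those of Reg1 (-0.0084 with TMM, -0.13 in edgeR, -0.08 in DESeq2, and -0.29 to 0.31 with single mice left out), Reg3b (-0.38 to 0.90) and Reg4 (-0.54 to 0.068). In WT irradiated against WT non-irradiated, Reg3a had -0.45 to 0.27 in colon and -0.17 to 0.18 in ileum with single mice left out, and in ileum -0.0048 with TMM, -0.12 with scaling to the library total, -0.019 in edgeR and -0.015 in DESeq2. In KO late against WT irradiated ileum, Reg3b had 0.13 and Reg3g 0.11 with both WT groups as control, and Reg4 had -0.89 to 0.25. In KO early against WT irradiated ileum, Reg3b had -0.035 to 0.41 and Reg3g -0.19 to 0.38. Reg1 in ileum had -0.10 to 0.42 for KO late against KO early, -0.023 to 0.47 for KO late and -0.080 to 0.31 for KO early against WT non-irradiated.

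Depth limits Reg1 and Reg3a in colon, and the 2 WT irradiated mice limit every comparison with that group.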
